A study of Mus musculus with 6 samples.

Results

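The septins are GTP-binding cytoskeletal proteins, and 10 of their genes, Sept2 to Sept11, were examined in RNA of mouse retina. They were chosen by gene symbol, because Sept8 had a higher estimate in retinas of Myrf +/− mice than in wild type. In the deposited table the 10 symbols filled 11 of 55450 gene rows, since Sept2 has 2 rows. All 11 rows passed the filter on low values, a mean of at least 1 FPKM. FPKM is a fragment count scaled to library depth and, here, to the annotated exon length of the gene. The series holds 6 samples of total RNA from retina of C57BL/6 mice aged 8 weeks. Of these, 3 are labelled Myrf-kd, which the series text describes as Myrf +/−, and 3 are wild type (WT). The product of Myrf is a transcription factor held in membranes until it is cut free, best known from oligodendrocytes, where it switches on genes of myelin. The labels give neither the altered part of the gene nor the way the line was made, and they do not say that the samples came from separate animals. P-values therefore measure only the spread between these samples, which may be partly technical.

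Septins form rod-shaped complexes that join end to end into filaments at membranes and along actin and microtubules. Each complex takes subunits from homology groups: the SEPT2 group (Sept2, Sept4 and Sept5 here), the SEPT3 group (Sept3 and Sept9), the SEPT6 group (Sept6, Sept8, Sept10 and Sept11) and SEPT7 (Sept7 alone), and members of a group can often take each other's place. In neurons septins are known at synaptic terminals and at the base of dendritic branches. In myelin of the mouse central nervous system, filaments that contain Sept2, Sept4, Sept7 and Sept8 are known to lie beside the axon together with the scaffold protein anillin. The optic nerve is myelinated, but the mouse retina itself normally is not.

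The estimated counts summed to between 50695091 units in WT 2 and 70298511 units in WT 3. Levels below are in CPM (counts per library total, scaled between libraries) where libraries are compared, and in FPKM where genes are compared, with libraries 1, 2 and 3 of a group in that order. Myrf was listed at 0.279, 0.382 and 0.351 FPKM in the 3 Myrf-kd libraries and at 0.359, 0.397 and 0.463 FPKM in the 3 WT libraries, so its groups overlapped. All 14 markers of retinal neurons and glia were above the filter. On the axis of largest variation (29.8% of the variance) Myrf-kd 3 scored 34.2, while the other 5 libraries lay between −16.3 and −0.886. Xist, which female cells express, was at 69.6 and 58.9 FPKM in Myrf-kd 3 and WT 3 and at most at 0.397 FPKM in the other 4 libraries.

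Sept8 was the septin whose groups stood apart. Its product belongs to the SEPT6 group and is known from rat neurons to bind the vesicle protein Vamp2. Sept8 (ENSMUSG00000018398) lies on the plus strand of chromosome 11, 53519257 to 53544096 (GRCm38), and has 7 annotated transcripts. Its levels were 178, 177 and 177 CPM in the 3 Myrf-kd libraries. In the 3 WT libraries they were 102, 124 and 99.3 CPM. The 3 Myrf-kd libraries lay close together and all above WT 2, the highest WT library, whose level the lowest Myrf-kd library exceeded 1.42-fold. The means were 177 ± 0.966 CPM in Myrf-kd against 108 ± 13.6 CPM in WT (SD, n = 3 each), a fitted log2 fold change of 0.71 ± 0.09 (SE). These values chose the family and are a description, with no test. In FPKM, which corrects for length, Sept8 was at 25.2 ± 0.105 in Myrf-kd and 15.2 ± 1.73 in WT (SD, n = 3 each). Without Myrf-kd 3 the log2 fold change was 0.71, and without WT 2 it was 0.82. In bulk retina RNA, a change in the number of cells of a type and a change in RNA per cell cannot be told apart.

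The RefSeq start sites of Sept8 are shown because Sept8 is the septin whose groups stood apart and Myrf is a DNA-binding factor. The windows run from 250 bases before to 50 after each RefSeq start site on GRCm38.p6, and 7 of the 10 septins had at least 1 window (16 in all), with no entry for Sept3, Sept5 and Sept6. Capitals mark matches, on either strand, to the heptamer known for the Myrf DNA-binding domain (CTGGCAC or CTGGTAC) or to the GC box (GGGCGG), a site of Sp-family factors. Neighbouring GC boxes can overlap, and TATAAA was searched as well. The Sept9 window is shown as the only septin window with the Myrf heptamer.
Sept8 start 1, chr11:53519486-53519785, plus strand: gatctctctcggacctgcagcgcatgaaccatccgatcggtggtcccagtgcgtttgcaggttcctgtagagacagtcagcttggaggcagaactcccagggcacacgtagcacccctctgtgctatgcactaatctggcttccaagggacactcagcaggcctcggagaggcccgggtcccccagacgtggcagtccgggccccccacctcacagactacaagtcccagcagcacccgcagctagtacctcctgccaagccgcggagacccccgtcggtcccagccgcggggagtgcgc
Sept8 start 2, chr11:53519938-53520237, plus strand: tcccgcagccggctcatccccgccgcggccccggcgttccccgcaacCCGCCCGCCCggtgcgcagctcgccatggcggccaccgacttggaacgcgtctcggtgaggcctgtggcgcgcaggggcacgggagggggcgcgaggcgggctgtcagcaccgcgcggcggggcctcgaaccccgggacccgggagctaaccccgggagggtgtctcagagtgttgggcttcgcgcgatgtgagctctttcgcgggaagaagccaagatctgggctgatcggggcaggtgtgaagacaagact
Sept9 start 1, chr11:117199411-117199710, plus strand: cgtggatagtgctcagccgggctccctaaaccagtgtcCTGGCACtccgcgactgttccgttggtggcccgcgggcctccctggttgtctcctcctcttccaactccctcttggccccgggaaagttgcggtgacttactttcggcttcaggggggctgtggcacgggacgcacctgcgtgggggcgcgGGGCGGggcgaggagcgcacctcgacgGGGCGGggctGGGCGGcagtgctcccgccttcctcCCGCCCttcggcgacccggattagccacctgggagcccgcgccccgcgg
Neither Sept8 window held the Myrf heptamer. The second held a pair of overlapping GC boxes, the first of them beginning at −203 from the start site. Both windows begin after the gene start given above (53519257), so the bases around that start were not searched. In the Sept9 window the heptamer began at −212. Of all 32851 mouse windows of this length, 7.10% held the heptamer, 35.7% a GC box and 13.6% TATAAA. Among the 16 septin windows the numbers were 1, 10 and 0. Some septin windows share bases and boxes, as those of Sept2 do, and merged where they overlap they gave 14 regions, 8 of them with a GC box. These matches describe letters and show no binding.

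**Figure D1:**
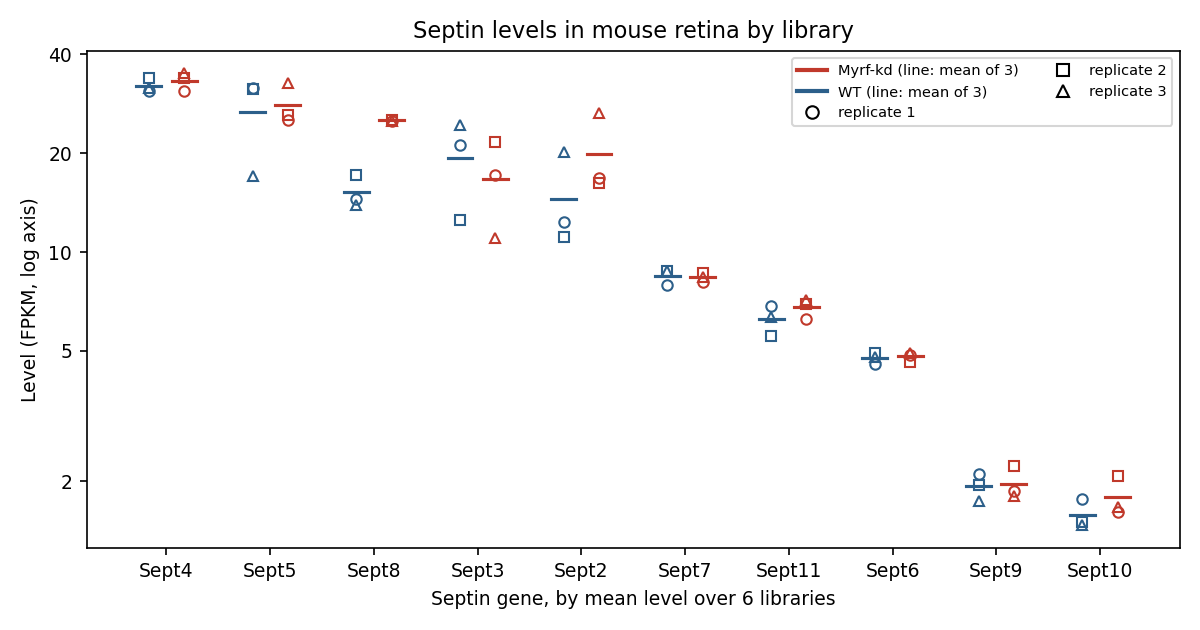
Level of each septin gene (FPKM, log axis) in each library, WT in blue and Myrf-kd in red, with the mean of 3 libraries as a line and both Sept2 rows summed. Sept8 is the gene with tight Myrf-kd values, 25.1 to 25.3 FPKM, all above its WT values of 13.9 to 17.2 FPKM. Sept3, Sept5 and Sept2 scatter within the groups. For Sept2 each row is divided by its own length in FPKM, and its summed CPM differ by at most 1.12-fold.

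In the other members of the SEPT6 group the genotypes overlapped. Sept6 (ENSMUSG00000050379, chromosome X, 36911326 to 36991794) was at 55.8, 52.4 and 56.6 CPM in the 3 Myrf-kd libraries and at 51.8, 57.6 and 55.4 CPM in the 3 WT libraries. Its means of 55.0 ± 2.22 and 55.0 ± 2.94 CPM (SD, n = 3 each) gave a log2 fold change of 0.00033 ± 0.07 (SE). Sept11 (ENSMUSG00000058013, chromosome 5, 93093437 to 93176447), whose product is known from dendrites and inhibitory synapses of rat neurons, was at 69.0, 75.2 and 78.7 CPM in Myrf-kd against 74.8, 62.3 and 70.5 CPM in WT. The groups of both genes overlapped. Sept10 (ENSMUSG00000019917, chromosome 10, 59141627 to 59221847) had the lowest mean FPKM of the 10 septins and was at 5.87, 7.41 and 6.04 CPM in Myrf-kd against 6.33, 5.59 and 5.38 CPM in WT. Its log2 fold change was 0.16 ± 0.16 (SE), with overlapping groups. Summed per length, Sept6, Sept10 and Sept11 reached 13.4 ± 0.578 FPKM in Myrf-kd against 12.6 ± 0.595 FPKM in WT (SD, n = 3 each). With Sept8 added, the SEPT6 group reached 38.6 ± 0.608 and 27.8 ± 1.305 FPKM. Sept8 thus made up 66.4%, 65.0% and 64.6% of the group in the 3 Myrf-kd libraries and 52.4%, 58.9% and 52.5% in the 3 WT libraries.

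Sept7, the subunit that septin filaments can least do without, varied little between libraries. Sept7 (ENSMUSG00000001833, chromosome 9, 25252439 to 25308571) was at 110, 115 and 113 CPM in the 3 Myrf-kd libraries and at 107, 121 and 119 CPM in the 3 WT libraries. Its log2 fold change was −0.04 ± 0.07 (SE), and the groups overlapped.

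The SEPT2 group held the septins with the highest mean FPKM, Sept4 and Sept5. Sept4 (ENSMUSG00000020486, chromosome 11, 87568903 to 87590539), whose human gene also gives the apoptosis-linked protein ARTS, had the highest mean FPKM of the family. Sept4 was listed at 30.9, 33.8 and 35.0 FPKM in the 3 Myrf-kd libraries and at 30.9, 33.8 and 31.7 FPKM in the 3 WT libraries. All 6 values lay within a range of 1.13-fold, and the log2 fold change was 0.03 ± 0.07 (SE). Sept5 (ENSMUSG00000072214, chromosome 16, 18620502 to 18629939), a presynaptic septin that binds syntaxin, was at 115, 117 and 149 CPM in the 3 Myrf-kd libraries. In the 3 WT libraries it was at 142, 146 and 78.3 CPM, so WT 3 alone was below 100 CPM. The table also lists Gm49601 (16.6 CPM in WT 3 and 7.37 to 10.1 CPM elsewhere), a gene on the same strand that shares 2206 of its 3430 exon bases with Sept5. With its level added, WT 3 was at 94.9 CPM and still the lowest, against 124 to 156 CPM in the other libraries. The platelet gene Gp1bb shares 1902 exon bases with Sept5 and was at most at 0.328 FPKM, and how reads were shared out among these genes was not tested.

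Sept2, a core subunit with known roles at actin fibres and in cell division, was split over 2 overlapping rows, and the division differed from library to library. The first row (ENSMUSG00000026276, chromosome 1, 93478964 to 93510260) covers 7979 exon bases, and all 3335 exon bases of the second (ENSMUSG00000116048, chromosome 1, 93478993 to 93509733) lie within them. The first row was at 90.6, 82.2 and 7.82 CPM in the 3 Myrf-kd libraries and at 114, 106 and 63.0 CPM in the 3 WT libraries. The second row was at 27.5, 27.7 and 99.2 CPM in Myrf-kd against was listed at 0, 0 and 52.3 CPM in WT. Myrf-kd 3 and WT 3, the libraries with Xist, had the lowest first row and the highest second row of their groups. Added up, the rows gave 118, 110 and 107 CPM in Myrf-kd against 114, 106 and 115 CPM in WT. The sums differed by at most 1.12-fold over the 6 libraries, whereas the first row alone differed 14.5-fold. The summed means were 112 ± 5.76 and 112 ± 5.13 CPM (SD, n = 3 each), with a log2 fold change of 0.0020 ± 0.07 (SE) when the rows were joined before the fit. In FPKM the sums did not level out, at 16.8, 16.2 and 26.5 in Myrf-kd and 12.3, 11.1 and 20.1 in WT, since each row is divided by its own length. The fitted differences of the single Sept2 rows depend on this division and are not read as differences of Sept2.

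**Figure D2:**
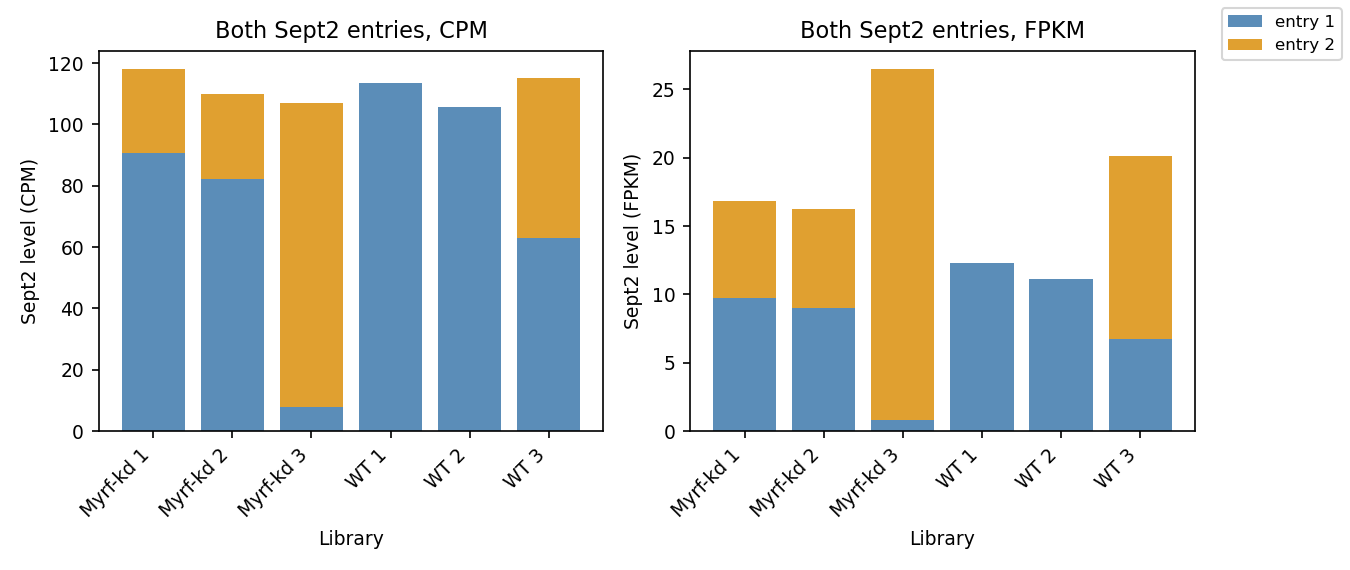
Level of the 2 Sept2 rows stacked for each library, in CPM on the left and FPKM on the right (entry 1 is the longer row, entry 2 the shorter). The stacks are 106 to 118 CPM high in all 6 libraries although the second row makes up 0% in WT 1 and WT 2 and 92.7% in Myrf-kd 3, while in FPKM they range from 11.1 to 26.5.

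The SEPT3 group held 1 abundant and variable gene and 1 low and steady gene. Sept3 (ENSMUSG00000022456, chromosome 15, 82274893 to 82293855), a septin of neurons found at presynaptic terminals, was at 133, 164 and 84.8 CPM in the 3 Myrf-kd libraries. In the 3 WT libraries Sept3 was at 162, 98.5 and 189 CPM. The lowest and the highest library differed 2.23-fold, both genotypes spanned low and high values, and the SD was 31.5% of the mean in Myrf-kd and 31.0% in WT. The log2 fold change of Sept3 was −0.23 ± 0.30 (SE), and it lay between −0.46 and −0.01 when each library was left out in turn. Sept9 (ENSMUSG00000059248, chromosome 11, 117199661 to 117362325), which takes the place of a further subunit in longer complexes, was at 16.5, 19.3 and 15.8 CPM in Myrf-kd against 18.4, 17.6 and 15.5 CPM in WT. The groups of both genes overlapped.

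By mean FPKM over the 6 libraries the order was Sept4 (32.7), Sept5 (27.4), Sept8 (20.2), Sept3 (18.0), Sept2 (17.2), Sept7 (8.43), Sept11 (6.51), Sept6 (4.78), Sept9 (1.95) and Sept10 (1.68). Of the 9 pairs of neighbours in this order, 6 kept it in all 6 libraries. Sept4 exceeded Sept5 in 5 of 6 libraries, Sept8 exceeded Sept3 in 4 of 6 and Sept3 exceeded Sept2 in 5 of 6, so these neighbours were within their spread. The order of Sept8 and Sept3 differed between the genotype means, at 15.2 and 19.4 FPKM in WT and 25.2 and 16.6 FPKM in Myrf-kd. FPKM divides by all annotated exon bases of a gene, so the order of the septins depends on the annotation. The place of Sept2 rests on the sum of its rows, and with the first row alone it came after Sept7. Sept8 made up 18.2%, 17.1% and 16.3% of the summed septin FPKM in the 3 Myrf-kd libraries and 10.8%, 13.3% and 10.7% in the 3 WT libraries. The septin total, and so each share, includes the Sept2 FPKM, which depend on the division of Sept2 over its rows. All 10 septins summed to 147 ± 8.29 FPKM in Myrf-kd against 131 ± 2.49 FPKM in WT (SD, n = 3 each), without overlap. Without Sept2 the sums overlapped, at 121, 131 and 128 FPKM in Myrf-kd against 121, 118 and 110 FPKM in WT. Without Sept8 as well they were 102 ± 5.16 and 101 ± 5.36 FPKM.

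**Figure D3:**
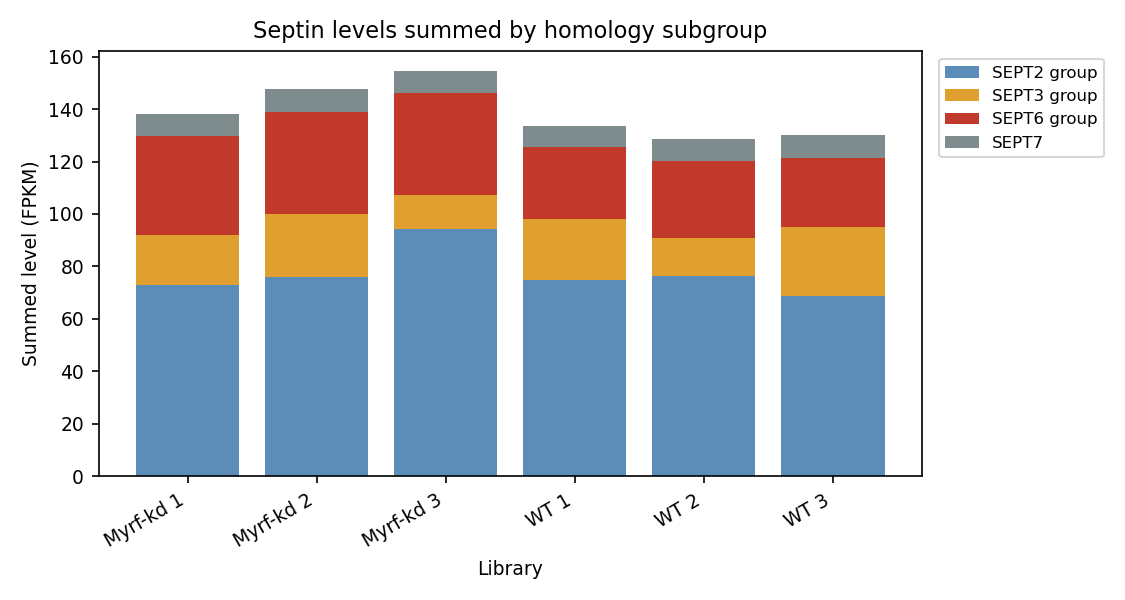
Summed FPKM of the septin homology groups in each library, stacked. The SEPT6 group, which holds Sept8, is at 37.9 to 38.9 FPKM in the Myrf-kd libraries and 26.5 to 29.1 FPKM in WT, and SEPT7 is at 7.94 to 8.76 FPKM throughout.

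The 11 septin rows, Sept8 among them, had a median absolute log2 fold change of 0.102, against 0.109 over all tested genes. This median does not describe Sept8 (0.71) or the Sept2 rows (−0.64 and 1.56). With Benjamini-Hochberg adjustment over 13673 genes, 0 of the 11 septin rows passed the threshold of 0.05 in edgeR's quasi-likelihood test, where 6 genes did (0.0439%, of which 0.0293% higher and 0.0146% lower in Myrf-kd), and 1 row, Sept8, had an unadjusted p under 0.05, where 7.49% of all genes did. DESeq2 called 1 septin row, Sept8, and 0.388% of its genes, and limma on log2(FPKM + 1) called 0 rows and 0.0293% of genes. The family was picked from this comparison, so nothing is read from these counts. The groups did not overlap in 1 of 11 rows, again Sept8, where they did not overlap in 14.6% of all genes (7.13% higher in Myrf-kd). The median log2 fold change of the 11 rows was 0.03, and that of all tested genes was 0.0041. Leaving aside Sept8 and both Sept2 rows, the other 8 septins lay between −0.23 and 0.16.

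**Figure D4:**
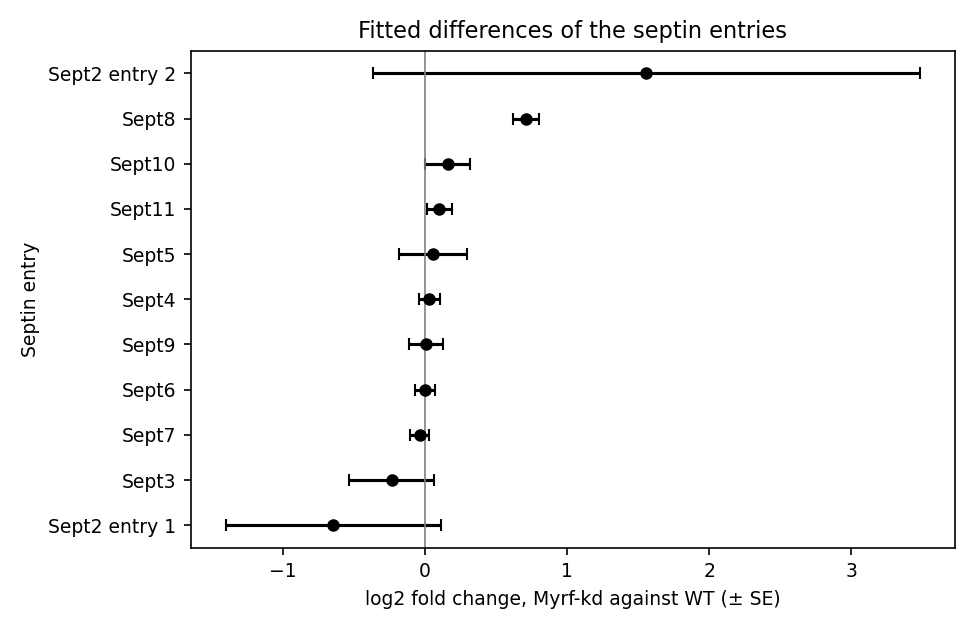
Fitted log2 fold change of each septin row, Myrf-kd against WT, with bars of 1 SE. Sept8 lies at 0.71 with an SE of 0.09, 8 other septins lie between −0.23 and 0.16, and the Sept2 rows have the longest bars.

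The remaining septins of the mouse were low or listed at 0. Sept1 was listed at 0.980, 0.625 and 0.804 FPKM in the 3 Myrf-kd libraries and at 0.801, 0.482 and 0.985 FPKM in the 3 WT libraries, below the filter. Sept12, known from testis, and Sept14 were listed at 0 in all 6 libraries.

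Genes whose products bind, recruit or modify septins were read beside the family. Of 13 genes of septin-binding proteins and effectors 10 were tested, as were 6 of 6 genes of membrane traffic and synapse partners and 2 of 3 kinase genes. Of these 18 genes, 0 passed in either direction by edgeR's quasi-likelihood test, DESeq2 or limma, which called 0.0439%, 0.388% and 0.0293% of all genes, so a count of 0 says little about a list of this size. Before adjustment, edgeR gave a p under 0.05 for 0 of the 18, where it did so for 7.49% of all genes. Their median log2 fold change was 0.02, against 0.0041 over all genes. Their groups did not overlap in 2 of 18, both lower in Myrf-kd, near the share of 14.6% over all genes. The smallest p belonged to Cdc42ep3, which encodes a Borg protein that binds septins downstream of Cdc42. Cdc42ep3 was at 18.5, 18.0 and 18.1 CPM in the 3 Myrf-kd libraries and at 20.4, 20.1 and 21.3 CPM in the 3 WT libraries (edgeR adjusted p = 0.685). Vamp2, the vesicle protein that Sept8 is known to bind in rat, was at 971 ± 21.7 CPM in Myrf-kd against 1038 ± 46.3 CPM in WT (SD, n = 3 each; edgeR adjusted p = 0.728). The apoptosis inhibitor gene Xiap, whose product is a target of the ARTS protein, had a log2 fold change of 0.16 ± 0.11 (SE), and the microtubule-associated protein gene Map4 one of −0.10 ± 0.07. The glutamate transporter gene Slc1a3 had a log2 fold change of −0.08 ± 0.05 (SE), and Arhgef18, which encodes a RhoA activator, one of 0.12 ± 0.09 (edgeR adjusted p = 0.733, 0.737, 0.740 and 0.741 for Xiap, Map4, Slc1a3 and Arhgef18). The anillin gene Anln was below the filter, at 0.285, 0.329 and 0.147 FPKM in Myrf-kd against 0.299, 0.256 and 0.300 FPKM in WT. Sept8 was listed at over 13 FPKM in each library and Anln at under 0.34 FPKM. Which cells the Sept8 RNA came from was not tested.

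Marker lists of other cell types were read beside Sept8. Of 15 oligodendrocyte and myelin genes 4 passed the filter, and the summed list was at 190 to 204 CPM in Myrf-kd against 221 to 265 CPM in WT, opposite in direction to Sept8. Most of that sum was the transferrin gene Trf, and Olig1 and Olig2 were listed at 0 in all 6 libraries. The cornea and surface epithelium list, 5 of 11 above the filter, was at 8.18 to 11.99 CPM in Myrf-kd against 24.0 to 32.4 CPM in WT, with Ly6d listed at 0 throughout. The retinal pigment epithelium list, 10 of 12 above the filter, was at 159 to 198 CPM in Myrf-kd against 200 to 264 CPM in WT. The retinal list, 14 of 14 above the filter, was at 28071 to 30656 CPM and 31887 to 50550 CPM, with the highest sums in WT 1 and WT 3. The lists of astrocytes (142 to 164 and 139 to 151 CPM), lens (1.82 to 73.9 and 17.9 to 27.8 CPM), platelets and blood (49.4 to 55.5 and 38.3 to 92.6 CPM) and vessels (231 to 265 and 218 to 255 CPM) overlapped between Myrf-kd and WT. For lens the overlap rests on Myrf-kd 3 (73.9 CPM), since Myrf-kd 1 and Myrf-kd 2, at 2.63 and 1.82 CPM, lay below every WT library. Of the 53 tested genes on these lists 0 passed edgeR's quasi-likelihood test, DESeq2 or limma, which call 0.0439%, 0.388% and 0.0293% of all genes. Before adjustment, edgeR gave a p under 0.05 for 8 of the 53 (15.1%), where it did so for 7.49% of all genes. The part of the lists that move with the genotype in the level of Sept8 was not tested.

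**Figure D5:**
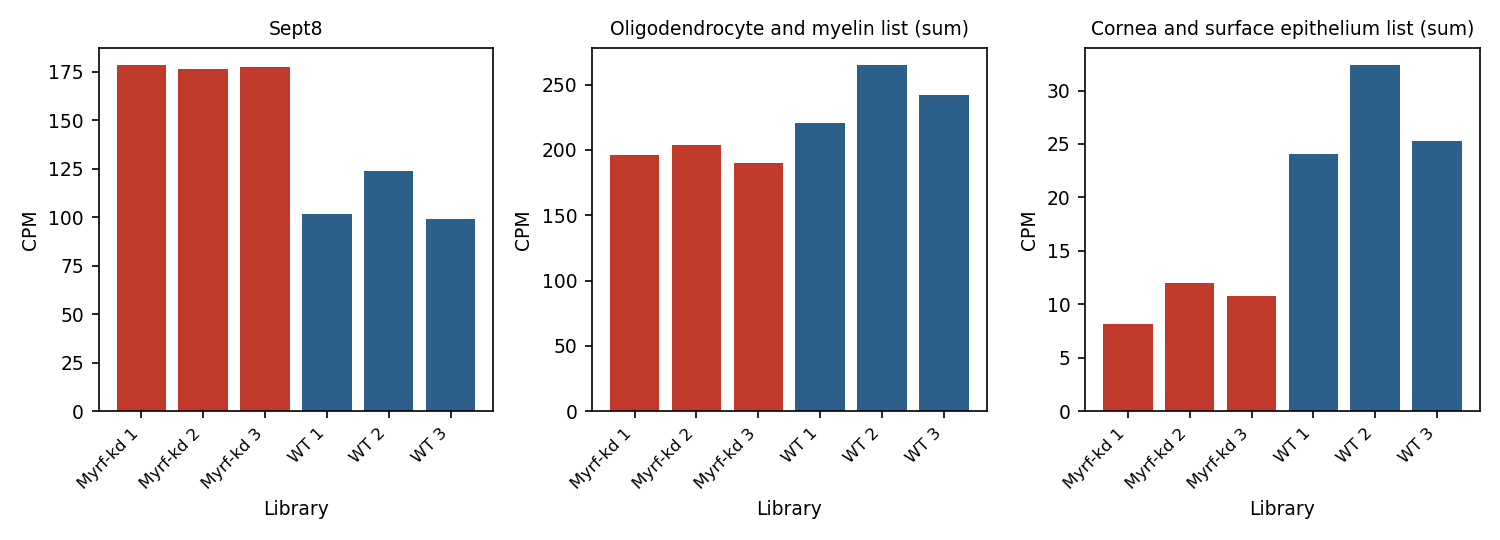
CPM of Sept8, of the summed oligodendrocyte and myelin list and of the summed cornea and surface epithelium list in each library (Myrf-kd in red, WT in blue). Sept8 is at 177 to 178 CPM in Myrf-kd against 99.3 to 124 CPM in WT, and both lists are lower in Myrf-kd than in WT.

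Around Sept8, 10 further genes within 500 kb were tested, a window chosen after the data were seen. Their log2 fold changes lay between −0.16 and 0.26 with 5 higher and 5 lower, and 0 passed edgeR's quasi-likelihood test, DESeq2 or limma. At the share of all genes called by edgeR, 0.0439% (7.49% at an unadjusted p under 0.05, where 0 of the 10 were), a count of 0 among 10 genes is uninformative. Sowaha, the nearest of them before Sept8, had a log2 fold change of −0.16 ± 0.18 (SE), and Kif3a, a ciliary kinesin gene and the nearest after it, one of −0.04 ± 0.10. The groups did not overlap in 3 of the 10 genes, Hspa4, Uqcrq and Irf1, all higher in Myrf-kd as Sept8 was, where 14.6% of all genes did not overlap and 7.13% were higher. These 3 were named after their values were seen.

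The genes most like Sept8 over the 6 libraries, by Pearson's r of log2(FPKM + 1), were Mafg (r = 0.988), Synpr (0.980), Srp72 (0.980), Bola2 (0.980) and Dgkq (0.979), with Spearman's rho of 1, 0.943, 1, 1 and 0.829. The small Maf gene Mafg was listed at 12.2, 12.5 and 11.5 FPKM in the 3 Myrf-kd libraries and at 6.86, 7.28 and 5.87 FPKM in the 3 WT libraries. All 5 were higher in every Myrf-kd library than in every WT library, the pattern of Sept8 itself. The 6 points share the genotype groups, so the coefficients are a description, and the other septin rows lay between −0.41 and 0.51.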

How the data were processed

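Retinal RNA of 3 Myrf-kd and 3 WT samples was sequenced, with groups and replicate numbers from the sample titles. The submitters' processing notes list GRCm38 as build and, as tools, StringTie 1.3.0, HISAT2 2.0 and Bowtie 0.12.2, without saying what each did. No source used here gives the strand setting, so sense and antisense reads are not told apart. The authors deposited FPKM, with 0.0001 for genes without signal, and estimated counts for 55450 genes. The deposited counts are whole, so rounding changed none. They equal FPKM times the exon length of the gene times 1 constant per library (within 1% for 100% of single-transcript genes above 200 units), so they are not independent of FPKM. The range of depth over the samples is in the report. Intervals from SEs cover the spread between samples.

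The 13673 genes whose FPKM averaged 1 or more were fitted with edgeR 4.0.16 (TMM, quasi-likelihood test, genotype only), with two-sided p-values adjusted by Benjamini-Hochberg at 0.05. The SE is the log2 fold change over the root of F. The biological coefficient of variation was 20.3%. The fits were tested on simulated counts. DESeq2 1.42.0, limma 3.58.1, other scalings and filters, leaving out single libraries and blocking on the replicate number were alternatives. The members and lists were chosen with earlier results of these data known. Named genes were all members, Sept1, Sept12, Sept14, the 6 partner genes with the smallest p, genes overlapping a member, and the 5 genes most like Sept8, leaving out predicted names. Marker lists are those named in the report. Sequences are RefSeq's, matched by symbol. Values of some single marker genes are not reported here.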

Additional observations from a re-analysis of the deposited data

How the results depend on the processing

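The log2 fold change of Sept8 stayed between 0.65 and 0.82 over 18 alternatives, the extremes being without WT 3 and without WT 2. The count of septin rows past the threshold was 0 in edgeR and became 1, Sept8, with DESeq2 and without WT 2 (0 to 1 over the omissions of 1 library). DESeq2 called 0.388% of its genes, and edgeR without WT 2 called 10 of 13673. Sept8 chose the family through this comparison, so nothing is read from these calls. The count over all genes, 6 in edgeR, was 53 with DESeq2, 2 with a mean FPKM of at least 5, 0 with the replicate number as a block and 9 to 16 over the omissions of 1 library, and the cause was not tested. Septin rows without overlap of the groups numbered 1, and 1 to 3 over the omissions, where 21.7% to 29.0% of all genes did not overlap, against 14.6% with all libraries, so the higher counts are not read. Partner genes past the threshold stayed at 0 in all 18 alternatives. The difference in the Sept8 share of septin FPKM, 5.59 percentage points, lay between 5.08 and 6.89, the latter with the first Sept2 row alone. The second Sept2 row, at 0 in WT 1 and WT 2, had fitted log2 fold changes between 0.66 and 14.6, which are not interpretable as a size. Joining the Sept2 rows, the Xist covariate and the first Sept2 row alone were chosen after seeing the data. Same-numbered samples deviated together with r of −0.05, 0.02 and 0.10 over genes. Of these pairs, only Myrf-kd 3 and WT 3, the libraries with Xist, correlated best with each other. Values this near 0 cannot decide whether the number pairs the samples. With the replicate block Sept8 had a log2 fold change of 0.72. With 3 libraries a group, differences of the size seen in Sept3 and Sept5 lay within the spread.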
